A study of Mus musculus with 4 samples.

Results

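The 10 transcription factors studied here, which set and maintain the identity of lung epithelium, were followed in epithelial cells that had been sorted by EpCAM from E18.5 mouse lungs, shortly before birth. They are Nkx2-1, Foxa1, Foxa2, Gata6, Cebpa, Klf5, Sox2, Sox9, Id2 and Nfib, chosen by name, and each of the 10 symbols has 1 row among the 23444 genes of the deposited table. EpCAM is an adhesion molecule on the surface of epithelium. The comparison was between embryos whose lung epithelium had lost Emc3 by conditional knockout (KO, 2 libraries) and wild-type embryos (WT, 2 libraries). Emc3 encodes a core subunit of the ER membrane protein complex, which helps to place membrane proteins in the membrane of the endoplasmic reticulum (ER). The sources used here do not give the mouse strain, the Cre driver, the sex or any pooling of animals.

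The lung epithelium arises from endoderm that switches on NKX2-1, a homeodomain factor that stays on in the descendant lineage. FOXA1, FOXA2 and GATA6 act with it to open and activate lung genes, SOX2 marks the future airways, and SOX9 and ID2 mark the growing distal tips. Before birth, CEBPA, KLF5 and NFIB take part in the maturation of the surfactant-producing alveolar type 2 (AT2) cells and of alveolar type 1 (AT1) cells, which form the thin gas exchange surface.

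The unit is RPKM as deposited by the authors, read numbers divided by gene length and library size, so levels can be compared between genes per unit of length. Library names give the group of the column heading and the number 27 or 35 that the heading also carries, whose meaning is not given. By heading, KO 27 and KO 35 are mutant and WT 27 and WT 35 control. By sample title, however, the library of KO 27 is a wild-type and that of WT 35 a knockout. The headings were followed. Emc3 itself measured 2.28 RPKM in KO 27 and 2.33 in KO 35, with WT 27 at 14.2 and WT 35 at 18 (limma adjusted p = 0.0242). Its level thus separated the libraries by heading. Each group of the titles holds a library with low Emc3 and a library with high Emc3. RPKM summed to between 141373 and 169294 per library, the lowest steps of the values put the relative depths within a ratio of 1.09, and absolute depth is unknown. Errors after ± are SD with n = 2, and, as no label names litters or animals, a p-value here reflects the spread among these libraries alone, which may be technical.

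Epithelial markers together were far more abundant than the markers of other cells, which were present too. Epcam was between 35.2 and 53.9 RPKM and the epithelial cadherin gene Cdh1 between 105 and 128 in the 4 libraries, while the leukocyte gene Ptprc was at most 0.401, the myeloid gene Fcer1g at most 8.84, the endothelial gene Pecam1 at most 2.34 and the collagen gene Col1a1 at most 7.91. Immune markers summed to 17.1 and 15.1 RPKM in the KO libraries and 6.51 and 4.76 in the WT libraries. Pan-epithelial markers summed to 318 RPKM in KO 27 and 328 in KO 35, with WT 27 at 298 and WT 35 at 284, with 4 of 6 above WT in both KO libraries, where 30.0% of all genes were. Epcam, the sorting antigen, averaged 53.4 ± 0.654 RPKM across KO and 40.7 ± 7.78 across WT (log2 fold change 0.40, limma adjusted p = 0.399).

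Promoter sequence is shown for the factor with the highest level (Nkx2-1), the one with the lowest level (Sox2) and for Foxa1, a forkhead gene whose own promoter holds a forkhead match. The promoter sequences used here cover 6 of the 10 genes, which is not a count of what RefSeq holds. They are the RefSeq (GRCm38.p6) promoters of Nkx2-1, Foxa1, Foxa2, Cebpa, Sox2 and Id2. Each runs from 250 bases before a RefSeq transcription start to 50 bases after it, 5′ to 3′ on the strand of the gene. For Foxa1 and Sox2 that start differs from the GENCODE gene position given below. The Foxa1 stretch lies inside the GENCODE gene, and the Sox2 stretch ends before the GENCODE exon begins. Capitals mark matches on either strand to the NKX2-1 core CTCAAG, the forkhead motif TGTTTNC, the C/EBP motif TTNNGNAA, the GC box GGGCGG, the TATA box TATAAA or the CCAAT box. In these sequences no match overlapped another.
Nkx2-1, chr12:56536859-56537158, minus strand: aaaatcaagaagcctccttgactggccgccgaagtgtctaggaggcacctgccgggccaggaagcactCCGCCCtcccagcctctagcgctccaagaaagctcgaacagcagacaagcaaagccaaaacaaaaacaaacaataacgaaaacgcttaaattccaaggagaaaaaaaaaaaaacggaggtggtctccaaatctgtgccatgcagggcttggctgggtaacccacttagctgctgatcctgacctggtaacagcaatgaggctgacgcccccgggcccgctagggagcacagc
Foxa1, chr12:57546062-57546361, minus strand: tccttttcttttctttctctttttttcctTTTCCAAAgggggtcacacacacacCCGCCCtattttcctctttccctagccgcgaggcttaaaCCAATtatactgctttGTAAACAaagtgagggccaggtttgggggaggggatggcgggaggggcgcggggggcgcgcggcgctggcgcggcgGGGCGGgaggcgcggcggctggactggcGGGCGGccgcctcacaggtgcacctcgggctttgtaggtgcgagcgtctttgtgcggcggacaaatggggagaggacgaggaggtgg
Sox2, chr3:34649745-34650044, plus strand: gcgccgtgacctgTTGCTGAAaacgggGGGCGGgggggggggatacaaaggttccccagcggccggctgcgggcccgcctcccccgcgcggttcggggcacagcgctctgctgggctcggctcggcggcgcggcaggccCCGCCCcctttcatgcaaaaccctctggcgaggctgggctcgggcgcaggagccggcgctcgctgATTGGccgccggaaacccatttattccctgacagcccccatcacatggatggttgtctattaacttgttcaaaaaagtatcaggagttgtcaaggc
The Nkx2-1 promoter held 1 match, to the GC box. Foxa1 had 3 GC boxes, 1 CCAAT box, 1 C/EBP match and the 1 forkhead match, and Sox2 had 2 GC boxes, 1 CCAAT box and 1 C/EBP match. The promoters of Foxa2, the other forkhead gene among the 10, held no forkhead match. Among all 32851 promoters of the same length, 35.7% held a GC box, 37.4% a CCAAT box, 40.7% a C/EBP match, 20.5% a forkhead match, 15.9% the NKX2-1 core and 13.6% a TATA box. The C/EBP motif is short and degenerate, and a match describes letters and not a bound site. GC content was 53.7% for Nkx2-1, 62.3% for Foxa1 and 66.3% for Sox2, beside a median of 52.7% over all promoters.

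The 10 factors ranged from Nkx2-1 to Sox2 in level and kept the same order in KO and WT, apart from neighbours that overlapped. Nkx2-1 stood first, at 264 to 278 RPKM, and ranked 54 of 23444 genes by its mean. Id2 (35.3 to 58.1 RPKM) and Klf5 (39.0 to 52.1) came next and overlapped each other, followed by Cebpa (27.2 to 35.5). Gata6 (15.9 to 19.5) and Foxa1 (14.0 to 19.2) overlapped as well. Nfib (9.84 to 11.1), Sox9 (5.07 to 7.92), Foxa2 (3.32 to 4.22) and Sox2 (0.464 to 0.851) followed with no overlap between neighbours.

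**Figure D1:**
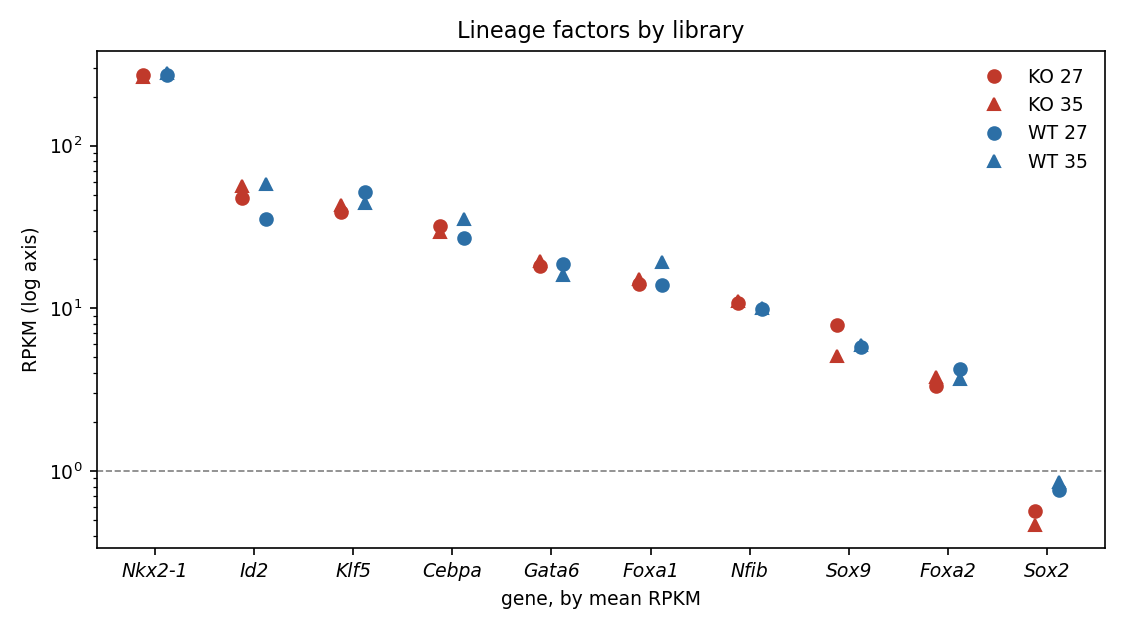
RPKM of each factor (log axis) in the 4 libraries, with KO in red, WT in blue, circles for number 27 and triangles for 35. The dashed line is 1 RPKM, and Sox2 is the one factor below it. Both KO points of Sox2 lie under both WT points (so did those of 16.3% of all genes tested, which leave out Sox2).

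No factor passed the test for a difference between KO and WT. Differences were tested with limma on log2(RPKM + 1) over the 10128 genes that reached 1 RPKM in 2 or more libraries, with Benjamini-Hochberg adjustment over all of them. Of the factors 9 entered the test (Sox2 was below the filter), and 0 of 9 passed an adjusted p of 0.05, beside 0.0691% of all genes (7 of 10128). At an unadjusted limma p under 0.05 the count was also 0 of 9, beside 13.8% of all genes. The number of genes called depended on single libraries, at 63 without WT 27, 35 without WT 35 and 13 without KO 27. The median log2 fold change of the 9 factors was -0.02 and their median absolute change 0.12, against 0.06 and 0.17 over all genes tested. Both KO libraries lay on one side of both WT libraries for 2 of 9, Nfib above and Klf5 below, where 46.4% of all genes did so. With a pair of libraries a group, an exact permutation test cannot give a p below 0.333, so the 95% intervals from limma are given as the measure of what the data allow.

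**Figure D2:**
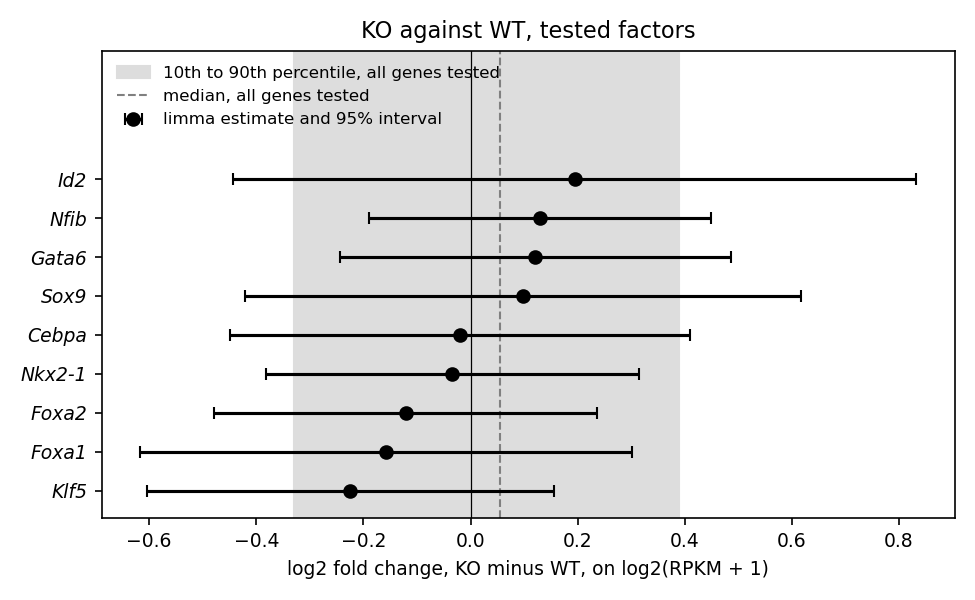
Fitted log2 fold change of the 9 tested factors (KO minus WT on log2(RPKM + 1)) with 95% intervals from limma, n = 2 libraries a group. Every interval includes 0, and all 9 estimates lie inside the grey band from -0.33 to 0.39 that holds the middle of all genes tested (10th to 90th percentile).

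Nkx2-1, the factor that defines the lung lineage, had nearly the same level in every library. It measured 271 RPKM in KO 27 and 264 in KO 35, with WT 27 at 270.1 and WT 35 at 278. The groups overlapped, with KO 27 between the WT libraries. The means were 268 ± 5.24 RPKM in KO and 274 ± 5.45 in WT, a difference of -2.31%. On the log2(RPKM + 1) scale the change was -0.03 (SE 0.14, adjusted p = 0.942), and its 95% interval ran from -0.38 to 0.32, which is 0.767-fold to 1.24-fold. Of all genes tested 89.3% had a larger absolute change. The gene lies on chromosome 12 from 56531958 to 56536908 on the minus strand (GENCODE M21, GRCm38, the build that mm10 names).

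The forkhead pioneer factors Foxa1 and Foxa2 differed from each other in level but not measurably between the genotypes. Foxa1 (chromosome 12, 57540628 to 57546916) measured 14.0 RPKM in KO 27 and 15.2 in KO 35, with WT 27 at 14.0 and WT 35 at 19.2. WT 35 alone was higher, and the other 3 libraries lay close together. The log2 fold change was -0.16 (95% interval -0.62 to 0.30, adjusted p = 0.761), and without WT 35 it was 0.0591. Foxa2 (chromosome 2, 148042877 to 148046969), which in mice shares many tasks with Foxa1, reached 3.32 and 3.76 RPKM in the KO libraries and 4.22 and 3.65 in the WT libraries. The groups overlapped, and the log2 fold change was -0.12 (95% interval -0.48 to 0.24, adjusted p = 0.766).

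Gata6, a zinc finger factor of endoderm and of distal lung epithelium, also overlapped between the groups. It measured 18.2 RPKM in KO 27 and 19.5 in KO 35, with WT 27 at 18.7 and WT 35 at 15.9, with WT 35 the lowest. Its log2 fold change was 0.12 (95% interval -0.24 to 0.49, adjusted p = 0.770). The gene lies on chromosome 18 from 11052064 to 11085635. By position 93 bases of one of its exons overlap 1010001N08Rik on the opposite strand, a transcript at 1.40 to 2.54 RPKM, and the counting is not stated to use strand.

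Among the factors of alveolar maturation, Cebpa spread more within WT than between the genotypes. Cebpa, a leucine zipper factor of AT2 cell maturation (a single exon on chromosome 7, 35119293 to 35121928), measured 31.8 RPKM in KO 27 and 29.5 in KO 35. The WT libraries were at 27.2 and 35.5 RPKM, one below and one above both KO libraries. The means were 30.7 ± 1.69 and 31.3 ± 5.84, with a log2 fold change of -0.02 (95% interval -0.45 to 0.41, adjusted p = 0.973). An antisense gene, Gm45091, overlaps its exon by 51 bases.

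Klf5, a zinc finger factor needed in mice for perinatal lung maturation (chromosome 14, 99298691 to 99315036), was lower in both KO libraries, by less than the test could call. It measured 39.0 RPKM in KO 27 and 42.9 in KO 35, with WT 27 at 52.1 and WT 35 at 44.2. The groups did not overlap, although KO 35 and WT 35 lay close to each other. The difference in means was -14.9%, and the log2 fold change of -0.22 (95% interval -0.60 to 0.16, adjusted p = 0.588) was the largest in size among the 9 tested factors.

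Nfib was higher in both KO libraries by a small margin. It encodes a nuclear factor I protein that drives prenatal lung maturation in mice, on chromosome 4 from 82290173 to 82705750. Its levels were 10.8 RPKM in KO 27 and 11.1 in KO 35, with WT 27 at 9.84 and WT 35 at 9.99. The spread within each group was narrow (10.9 ± 0.268 in KO and 9.92 ± 0.106 in WT). The difference of 10.4% gave a log2 fold change of 0.13 (95% interval -0.19 to 0.45, adjusted p = 0.718), and its unadjusted limma p was under 0.05 only when no filter on low values was set (limma adjusted p = 0.564). Its relatives, named after their values were seen, lay the other way or overlapped. Nfia reached 9.93 and 9.92 RPKM in the KO libraries and 11.2 and 13.2 in the WT libraries (log2 fold change -0.27), Nfix at 17.36 and 15.1 against 17.40 and 17.99 (-0.12), and Nfic at 3.30 and 3.32 against 3.60 and 3.02.

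The distal tip factors Sox9 and Id2 varied between libraries of one group. Sox9, an HMG box factor of distal progenitors (chromosome 11, 112782224 to 112787760), measured 7.92 RPKM in KO 27 and 5.07 in KO 35, the highest and the lowest of the 4 libraries. WT 27 and WT 35 lay between them at 5.77 and 5.98 RPKM. The log2 fold change was 0.10 (95% interval -0.42 to 0.62, adjusted p = 0.879), and -0.18 without KO 27. Id2, an inhibitory helix-loop-helix protein without a DNA-binding region (chromosome 12, 25093799 to 25097140), reached 47.8 and 56.5 RPKM in the KO libraries and 35.3 and 58.1 in the WT libraries. Both KO libraries lay inside the WT range. Its log2 fold change of 0.19 had the widest interval of the 9 tested factors (-0.44 to 0.83, adjusted p = 0.790). It was -0.16 without WT 27 and 0.55 without WT 35, and without WT 35 alone its 95% interval, from 0.10 to 0.99, left out 0 (limma adjusted p = 0.284).

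Id1 and Id3, relatives of Id2 that BMP signalling induces in many cell types, showed larger differences that did not pass either. Id3 measured 25.2 RPKM in KO 27 and 24.2 in KO 35, with WT 27 at 14.4 and WT 35 at 17.1 (log2 fold change 0.62, limma adjusted p = 0.205). Id1 reached 14.5 and 12.6 RPKM against 9.06 and 9.31 (log2 fold change 0.51, limma adjusted p = 0.226). Both had KO above WT in every library, unlike Id2, but the difference between the paralogues was not tested. Id4, below the filter, went the other way, at 0.358 and 0.387 RPKM in KO and 0.479 and 1.13 in WT.

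Sox2, the HMG box factor of airway progenitors, was the least abundant of the 10 and the one below 1 RPKM everywhere. It measured 0.568 RPKM in KO 27 and 0.464 in KO 35, with WT 27 at 0.764 and WT 35 at 0.851. Both KO libraries were below both WT libraries, as they were for 16.3% of all genes tested. That share leaves out Sox2 and other genes below the filter. The mean of Sox2 in KO was 0.639 of that in WT (0.516 ± 0.0735 against 0.807 ± 0.0615 RPKM). With no filter on low values its difference on log2(RPKM + 1) was -0.25 (95% interval -0.53 to 0.02, limma adjusted p = 0.603). At this level the pseudocount sets the size of the difference, which was -0.56 with 0.1 and -0.07 with 5, and with the groups of the sample titles it was -0.0147. The single exon of Sox2 lies on chromosome 3 from 34650405 to 34652461.

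Ratios within a library do not depend on how the library was scaled. Sox9 exceeded Sox2 by 13.9-fold in KO 27 and 10.9-fold in KO 35, and by 7.56-fold in WT 27 and 7.03-fold in WT 35. The groups did not overlap, and the log2 ratio was 3.63 ± 0.25 in KO and 2.87 ± 0.07 in WT. The Foxa1 to Foxa2 ratio was 4.23 and 4.05 in KO and 3.31 and 5.27 in WT, both WT libraries lying outside the KO values. Nkx2-1 exceeded Foxa2 by 81.8-fold and 70.3-fold in KO and by 64.0-fold and 76.1-fold in WT. Cebpa was at 0.117 and 0.112 of Nkx2-1 in KO and at 0.101 and 0.128 in WT. Thus 1 of 4 ratios separated the groups. By their own levels 46.4% of all tested genes did so, and no such share was computed for ratios. The Sox9 to Sox2 ratio rests on Sox2 at less than 1 RPKM.

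**Figure D3:**
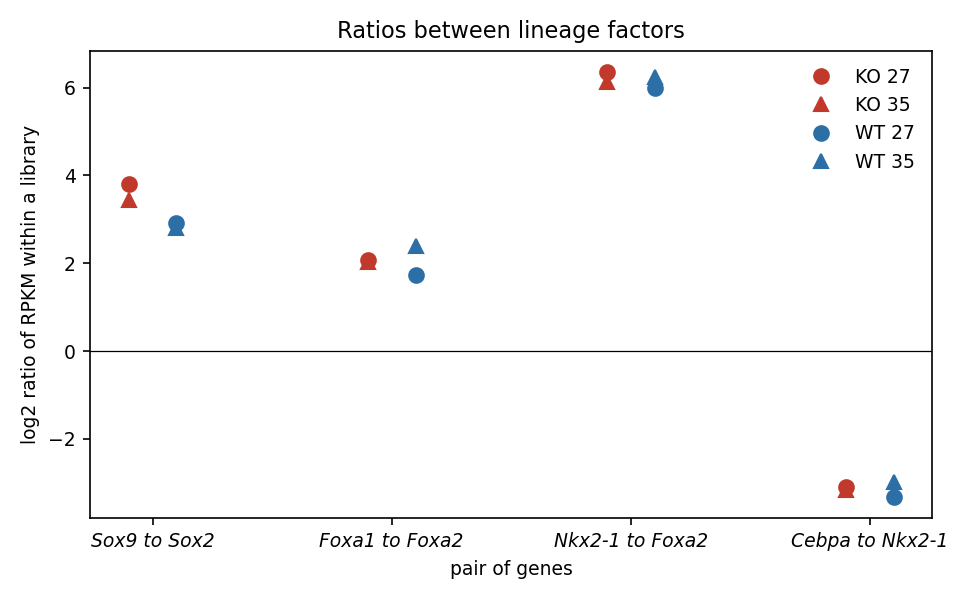
Log2 ratio of RPKM between pairs of factors within each library, KO in red and WT in blue, circles for number 27 and triangles for 35. The Sox9 to Sox2 ratio is higher in both KO libraries (3.80 and 3.45) than in the WT libraries (2.92 and 2.81), and the other 3 ratios overlap.

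Beside the low Sox2, genes of mature airway cells were lower in KO without passing the test. All 7 tested genes of 11 on the airway list had negative log2 fold changes, with a median of -0.87, 5 had KO below WT in every library (16.3% of all genes did) and 4 had an unadjusted p under 0.05 in this direction (5.68% of all genes). With each library left out in turn, an alternative chosen after seeing the data, 6 or 7 of the 7 were negative. These fits reuse the same libraries, so they add no independent evidence. Foxj1, the master factor of motile cilia, reached 8.97 and 9.29 RPKM in the KO libraries and 15.4 and 19.9 in the WT libraries (log2 fold change -0.87, limma adjusted p = 0.176). Cyp2f2, an enzyme of club cells, reached 78.5 and 82.2 RPKM against 134 and 179 (-0.94, limma adjusted p = 0.177). Ccdc78 and Cdhr3, genes of ciliated cells, averaged 1.75 ± 0.505 and 3.18 ± 0.0980 RPKM across KO, against 4.08 ± 0.981 and 6.65 ± 2.13 across WT. In bulk RNA, fewer cells of a type and less RNA per cell cannot be told apart.

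Surfactant and other AT2 genes that NKX2-1, FOXA factors and CEBPA are known to activate showed a median of -0.08 on the log2 scale over 12 tested genes, none of which passed. The groups overlapped for 10 of the 12 and did not for 2, where 46.4% of all genes did not overlap. Cldn18, a claudin of alveolar cells, was higher in both KO libraries (195 and 202 RPKM against 152 and 144, log2 fold change 0.42, limma adjusted p = 0.295). Abca3, the lipid transporter of lamellar bodies, was lower (59.2 and 51.5 against 70.1 and 89.98, -0.52, limma adjusted p = 0.308). Lyz2, a lysozyme gene that macrophages express too, was at 387, 329 and 359 RPKM in KO 27, KO 35 and WT 27 and at 1220.1 in WT 35. Sftpd, a surfactant collectin gene, reached 99.9 and 137 RPKM in the KO libraries and 61.8 and 125 in the WT libraries.

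Distal tip progenitor genes did not move one way. Of 9 tested on a list of 12 that includes Sox9 and Id2, 5 had positive and 4 negative changes. The chromatin factor Hmga2 was at 8.40 RPKM in both KO libraries and at 5.31 and 5.62 in WT (log2 fold change 0.54, limma adjusted p = 0.205). Etv5, an ETS factor downstream of FGF signalling, reached 69.6 and 61.9 RPKM in the KO libraries and 85.8 and 92.6 in the WT libraries (-0.43, limma adjusted p = 0.298), and the receptor gene Fgfr2 at 104 and 91.6 against 136 and 122 (-0.39). Mycn, a proliferation factor, reached 1.14 and 1.16 RPKM in the KO libraries and 0.940 and 0.586 in the WT libraries, and passed the filter through the KO libraries alone.

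The median over the 7 AT1 markers was -0.34 on the log2 scale, and the groups overlapped for 6, leaving 1 that did not, where 46.4% of all genes did not overlap. The changes were negative for 5 and positive for 2. The markers summed to 264 RPKM in KO 27 and 279 in KO 35, with WT 27 at 414 and WT 35 at 285, so WT 27 alone stood far apart. Cav1, which encodes the coat protein of caveolae, reached 46.8 and 53.8 RPKM in the KO libraries and 68.8 and 72.7 in the WT libraries (log2 fold change -0.49, limma adjusted p = 0.257). The receptor gene Ager reached 58.2 and 49.96 RPKM in the KO libraries and 81.5 and 57.6 in the WT libraries. Clic5, Akap5 and Hopx had log2 fold changes of -0.42, -0.34 and -0.22, with overlapping groups. For Akap5 (61.5 and 64.7 RPKM in KO, 108 and 59.8 in WT) and Hopx (56.2 and 55.1 in KO, 91.7 and 46.0 in WT), WT 35 lay below both KO libraries. Podoplanin (Pdpn), a surface glycoprotein of AT1 cells, reached 10.3 and 12.1 RPKM in the KO libraries and 10.4 and 9.36 in the WT libraries (log2 fold change 0.16), and the water channel gene Aqp5 had a log2 fold change of 0.01.

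No family relative and no other regulator of lung epithelium passed an adjusted p of 0.05 either, and the lists were not tested against each other. Of 29 paralogues 19 were tested, with a median of 0.14 and a median absolute change of 0.24. KO was above WT in every library for 9 of them, where 30.0% of all genes were, and below for 4, where 16.3% were. An unadjusted limma p under 0.05 with KO higher was found for 5 (8.17% of all genes). Besides Id1 and Id3, the leucine zipper factor Cebpg reached 11.3 and 12.8 RPKM in the KO libraries and 8.12 and 8.33 in the WT libraries (log2 fold change 0.50, limma adjusted p = 0.227). The zinc finger factor Klf7 reached 11.4 and 12.2 RPKM against 7.83 and 8.50 (0.48, limma adjusted p = 0.231).

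Of 32 other regulators 28 were tested, with a median of -0.04 and a median absolute change of 0.31. KO was above WT in every library for 8 of them, where 30.0% of all genes were, and below for 10, where 16.3% were. Mycn, one of the 8, passed the filter through the KO libraries alone. Tfcp2l1, a grainyhead-related factor, came closest to the threshold, at 42.1 and 44.8 RPKM in KO against 10.4 and 13.8 in WT (log2 fold change 1.77, limma adjusted p = 0.0669). Pparg, a nuclear receptor of lipid metabolism, reached 2.15 and 3.36 RPKM against 0.988 and 1.02 (0.89, limma adjusted p = 0.196). Srebf1, a factor of lipid synthesis, reached 9.14 and 7.98 RPKM against 15.1 and 13.2 (-0.67, limma adjusted p = 0.196). Of the 28, 4 had an unadjusted limma p under 0.05 with KO higher (8.17% of all genes) and 7 with KO lower (5.68%).

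**Figure D4:**
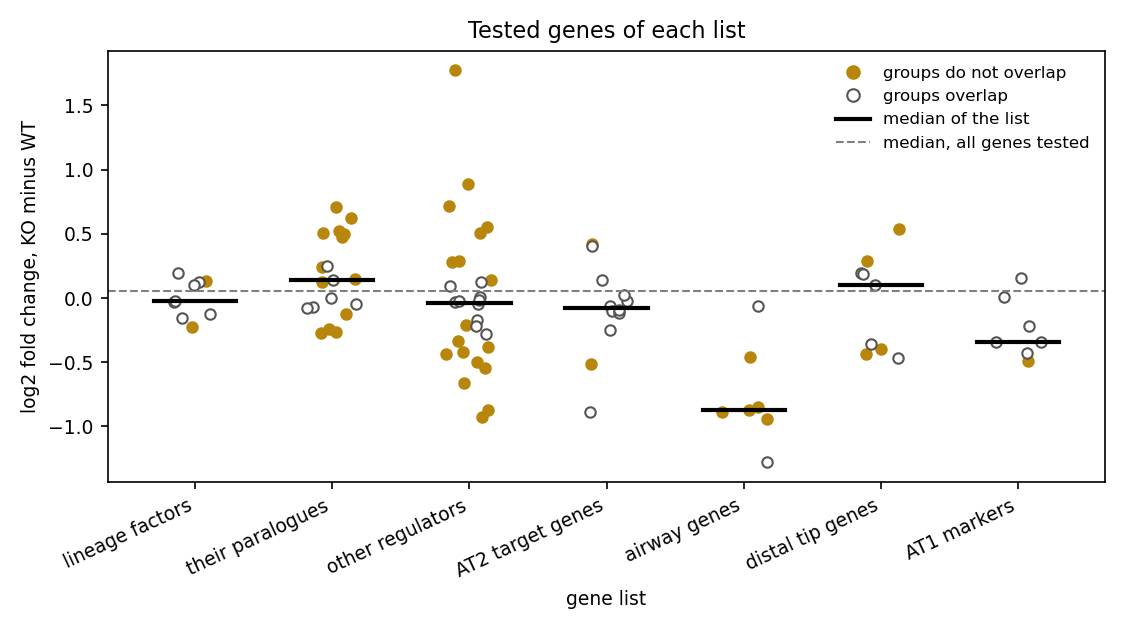
Fitted log2 fold change of each tested gene by list (KO minus WT on log2(RPKM + 1)), filled where the KO and WT libraries do not overlap, with the list median as a bar; some genes stand on more than 1 list. The lineage factors span -0.22 to 0.19, while the other regulators span -0.93 to 1.77 and the airway genes -1.28 to -0.06.

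Markers of other cells were measured beside these results. All 6 immune markers listed had KO above WT in every library, where 30.0% of all genes tested had, and none was at 0 in all libraries. Of these Ptprc was below the filter, and Tyrobp (3.57 and 1.80 RPKM in KO, 0.830 and 0.182 in WT) and Cd52 (1.23 and 1.01 in KO, 0.314 and 0.440 in WT) passed it through the KO libraries alone. Fcer1g, an Fc receptor subunit of myeloid cells, reached 7.87 and 8.84 RPKM in the KO libraries and 2.93 and 2.17 in the WT libraries (limma adjusted p = 0.0689). Endothelial markers summed to between 11.5 and 15.3 RPKM and mesenchymal markers to between 17.5 and 24.7, and these sums overlapped between the groups. Of 5 tested endothelial markers 1 had KO below WT in every library (Kdr, 1.61 and 1.91 RPKM against 2.53 and 3.16). Of 4 tested mesenchymal markers 1 did (Col1a1), where 16.3% of all genes did. Neuroendocrine markers, all below the filter, summed to 1.17 and 1.08 RPKM in KO and 1.62 and 1.89 in WT. The part of immune cells in the values of Cebpa, Klf5, Id2 and the paralogues, which leukocytes also express, was not tested.

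The authors' deposited table carries a p-value and a signed fold change for each gene, and in it too no factor had a p under 0.05, where 3.57% of the tested genes did. In the authors' deposited table the lowest p among the 10 was that of Sox2 (p = 0.0938, fold change -3.71) and the highest that of Id2 (p = 0.944, fold change 1.05). Those fold changes are not the ratios of the RPKM columns. Cebpa has -2.27 and Foxa2 -2.14 in the authors' deposited table, where the mean RPKM in KO was 0.978 and 0.898 of that in WT. Nfib has -1.86 in the authors' deposited table and a higher RPKM in KO, and it is the 1 factor of 10 for which the signs differ. Over 10078 genes the log2 of the fold change in the authors' deposited table minus the log2 RPKM ratio had a median of -0.18, and the signs differed for 31.4% of genes. The sources used here do not say how those fold changes were computed.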

How the data were processed

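RNA of 4 libraries was measured by RNA sequencing. Per the labels, an RNeasy Micro kit gave the RNA and Nextera XT the libraries. The submitters' processing notes list DESeq, Cufflinks 2.0.2, TopHat2 2.0.8 and Bowtie2 2.1.0, and the build mm10, without the role of each. The deposited table gives RPKM per library, per the file headers, with a p-value from the authors that is not called adjusted. The deposited fold change is a signed score, minus the inverse ratio where the ratio is below 1. The sources used here name no filter on reads.

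Libraries were grouped by column heading. A gene was tested where 2 or more libraries had 1 RPKM or more (10128 of 23444). The test was limma 3.58.1 (R 4.3.3) on log2(RPKM + 1), with a variance trend and genotype as the only term (2 residual and 3.65 prior degrees of freedom), two-sided, Benjamini-Hochberg adjusted over all tested genes at 0.05. The planned test for counts was not used because the table holds RPKM. The test was tried on simulated data. Fold changes on log2(RPKM + 1) understate changes of low genes. The factors and all lists were chosen with earlier results of these data known. All 10 factors are named, with up to 4 genes of smallest p of each list other than the marker lists. Epcam, Cdh1, Ptprc, Pecam1, Col1a1 and Emc3 are named too, and of the marker lists a selection is given. Some further genes were named after their values were seen. Relative depth came from the commonest ratio between values below 0.15 RPKM. Positions and overlaps are from GENCODE M21, promoters from RefSeq (GRCm38.p6). Figures used Python 3.11.15 and matplotlib 3.10.9. Alternatives are given in the closing section.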

Additional observations from a re-analysis of the deposited data

How the results depend on the processing

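No factor passed an adjusted p of 0.05 under any alternative: over the 97 values of the 9 tested factors with libraries grouped by heading the lowest limma adjusted p was 0.284, and with the groups of the titles it was 0.998. Of the 97 values 5 changed sign, all with a library left out. They were Cebpa without KO 35 (0.03) and without WT 35 (0.17), Foxa1 without WT 35 (0.0591), Id2 without WT 27 (-0.16) and Sox9 without KO 27 (-0.18); with a library left out the ranges were -0.21 to 0.17, -0.37 to 0.0591, -0.16 to 0.55 and -0.18 to 0.38. Nkx2-1 stayed between -0.05 and -0.01, Klf5 between -0.34 and -0.11, Nfib between 0.07 and 0.15, Gata6 between 0.01 and 0.23 and Foxa2 between -0.20 and -0.04 under all alternatives that keep the headings. The lone library left in a group is assumed to vary like the other group. With the groups of the titles, which set number 27 against 35, the values were 0.13 for Cebpa, 0.27 for Foxa1, -0.0635 for Gata6, 0.00030188 for Nkx2-1 and -0.26 for Sox9, opposite in sign to those by heading. Each group of the titles mixes libraries with low and high Emc3, so values by title do not set low Emc3 against high.

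The median of the factors was 0.0591 without WT 35 (range -0.0539 to 0.0591 with a library left out). The Sox9 to Sox2 difference in log2 ratio, 0.76, was 0.14 with a pseudocount of 5, -0.23 with the groups of the titles and 0.59 to 0.94 with a library left out. The count of 7 genes was 0 with no filter (1979 at an unadjusted limma p under 0.05), 4 with a filter of 10 RPKM, 4 with a pseudocount of 5, 4 with the groups of the titles, and 9 to 63 with a library left out. Quantile normalization moved the median of all genes from 0.06 to 0.02. The cause of these shifts was not tested. A replicate block by heading number gave 9 genes and changed no call on a factor; deviations of KO 27 and WT 27 from their group means correlated across genes with r = 0.148, and the labels do not say that the number pairs animals. The titles' own replicate numbers were not used, since the headings carry none. Depth per library is unknown.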
